A study of Homo sapiens with 6 samples.

Results

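Histone genes were described in a human thyroid cancer cell line that was made to overexpress SK4. They are the protein-coding rows of the deposited expression table whose symbols begin with H1-, H2AC, H2AZ, H2AX, H2AJ, H2BC, H2BU, H3C, H3-, H4C or H4-, and they number 73 of 32896 genes. Of these, 63 were taken as replication-dependent genes, with 50 in the cluster on chromosome 6, 12 on chromosome 1 and 1 (H4-16) on chromosome 12, and 10 as replacement variants. SK4 is the intermediate-conductance calcium-activated potassium channel KCa3.1, encoded by KCNN4. BHT101 cells, a line derived from a thyroid carcinoma, received an SK4 plasmid (3 libraries) or a control plasmid (3 libraries) with Lipofectamine 2000 and were harvested 48 h later. Both groups grew in the same DMEM medium with serum. Apart from 1 label given below, the labels name the same cell line throughout, and so 1 genetic background. RNA was sequenced from polyadenylated transcripts with a strand-marking kit. The share of cells that took up plasmid was not stated in the sources used here. For control replicate 3, 1 label names the cells BHT102 and the others name them BHT101. Nothing in the labels ties the 3 samples of a group to separate cultures, so p-values reflect the spread among samples, and that spread may be technical.

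Pairs of H2A, H2B, H3 and H4 form the nucleosome core around which DNA is wound, and H1 binds the linker DNA between nucleosomes. The replication-dependent genes supply histones for newly copied DNA in S phase. Most lack introns, and their mRNAs usually end in a short stem-loop, bound by the protein SLBP, in place of a poly(A) tail. Replacement variants such as H2AZ and H3.3 are made throughout the cell cycle from mRNAs that mostly carry a poly(A) tail. A poly(A) capture takes up polyadenylated mRNA. How much of each gene's RNA was captured was not measured. In bulk RNA, more cells in S phase and more RNA per cell cannot be told apart.

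The stem-loop was searched in GENCODE 29 transcripts on the transcript strand, as GG, any 3 bases, TTNTNA, any 3 bases and CC, with stems of 6 bases that pair with at most 1 mismatch around a loop of 4 bases. It was found in 30 of the 73 genes, 29 of them replication-dependent. Within the last 100 bases of a protein-coding transcript it was found in 11 of 70 histone genes with such transcripts, and in 28 of 19684 protein-coding genes in all (0.142%). Many histone gene models are short (22 are under 420 nt), and no match says only that these letters were not in the model searched. H3C2 and H3C3 are among the 73 but had no GENCODE 29 transcript to search. The matches below come from genes whose levels are described later and from the highest gene below the test limit, H4C9. Capitals mark the 16 bases of the stem-loop, written with T for U, 5′ to 3′, with the flanking bases in lower case.
H2AC6: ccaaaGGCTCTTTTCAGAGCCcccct
H2AC8: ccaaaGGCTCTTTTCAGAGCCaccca
H2BC8: tcaaaGGCTCTTTTCAGAGCCactca
H2BC21: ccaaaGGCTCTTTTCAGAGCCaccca
H3C10: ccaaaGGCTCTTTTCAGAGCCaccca
H2BC4: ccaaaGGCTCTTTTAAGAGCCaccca
H2BC5: ccaaaGGCTCTTTTAAGAGCCacgca
H2AC11: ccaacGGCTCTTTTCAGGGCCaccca
H4C9: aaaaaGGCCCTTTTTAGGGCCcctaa
H2AX: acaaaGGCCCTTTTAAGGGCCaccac
The first 5 share 1 sequence with 10 other members. H2BC4 and H2BC5 share a second form with H2BC7 and H3C8. The form of H4C9 was found in 3 H4 genes, and a further form, not shown, in 5 H4 genes. H2AX, the variant that is phosphorylated at DNA breaks and is counted here as a replacement variant, also carries a stem-loop. Among annotated transcripts with the loop, the one that ended soonest after it was measured. It continued past the loop by 1114 bases in H2AC6, 1729 bases in H2BC21, 1059 bases in H2BC8 and 821 bases in H2AX. In H2BC4 it continued by 116 bases and in H2BC5 by 39 bases. These latter genes each have 2 annotated transcripts, 1 with a loop match and 1 with more than 1 exon. All 3 annotated transcripts of H2AC6 have more than 1 exon.

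Levels are FPKM, fragments per kilobase normalised to the mapped fragments of each library, as the authors deposited them. Replacement variants held the highest levels, with H2AZ1 at 213.6 and H1-10 at 198.4 FPKM on average over the 6 libraries. H2BC12, an H2B gene, and H1-2, a linker histone gene, were the only replication-dependent genes above 12 FPKM, at 72.6 and 41.6 FPKM. A gene was tested where it reached 1 FPKM in at least 3 libraries, which 28 of the 73 genes did, 20 of 63 replication-dependent (17 on chromosome 6 and 3 on chromosome 1) and 8 of 10 replacement genes. By histone, 2 of 6 replication-dependent H1 genes passed, 5 of 15 H2A, 7 of 18 H2B, 5 of 12 H3 and 1 of 12 H4. FPKM divides by a gene length that was not stated in the sources used here, so levels of different genes carry the error of those lengths. Reads of near-identical copies, such as the H3 and H4 coding regions, may be shared between members, and their handling was not stated in the sources used here.

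**Figure D1:**
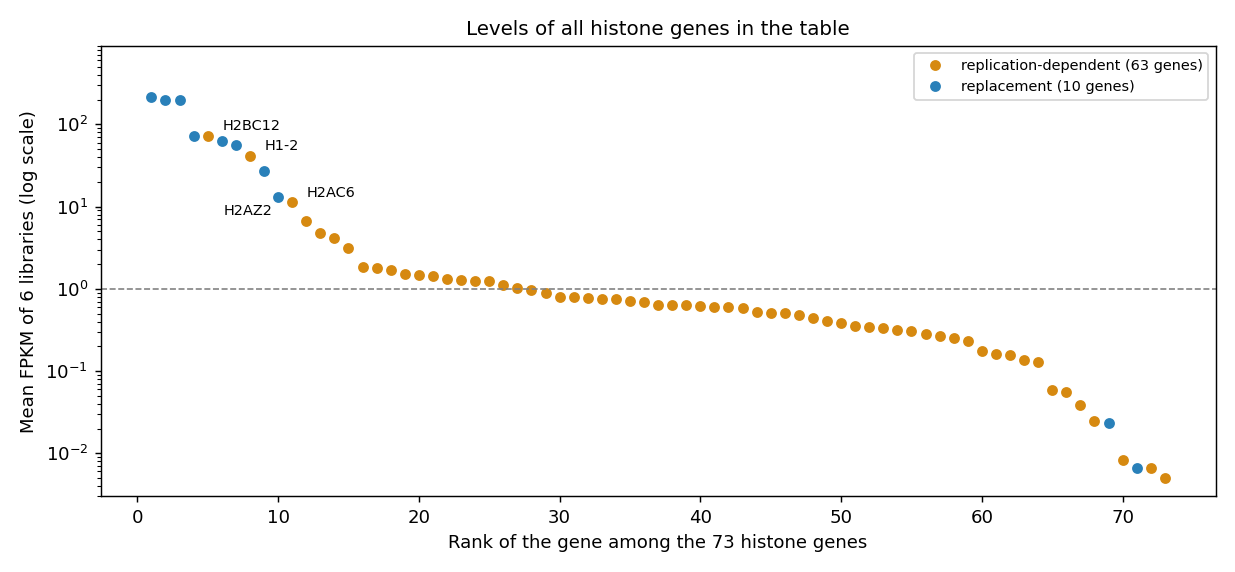
Mean FPKM over the 6 libraries on a log axis for each of the 73 histone genes, in order of level. Orange points are the 63 replication-dependent genes and blue points the 10 replacement variants, and the dashed line marks 1 FPKM. Replacement variants hold the highest places, H2BC12 (72.6 FPKM) and H1-2 (41.6 FPKM) stand above the other replication-dependent genes, and 45 genes were not tested.

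Across the 45 genes that were not tested, mean levels ran from 0.005 to 0.887 FPKM with a median of 0.355, and 8 were listed at 0 in at least 1 library. The 3 highest were H4C9 at 0.887, H3C2 at 0.802 and H4-16 at 0.788 FPKM. The replacement genes among them were H1-8 and H3-5. Of all untested genes with at least 0.1 FPKM on average, 7.21% had groups that did not overlap, and 2 of the 36 such histone genes did. They are named here after their values were seen. H1-3, a linker histone gene, had 0.39, 0.39 and 0.10 FPKM in SK4 libraries, against 0.93, 0.47 and 0.78 FPKM in control libraries. H2BU1, an H2B gene, was at 0.15 to 0.21 FPKM in SK4 libraries and 0.09 to 0.13 FPKM in control libraries. Neither was tested.

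KCNN4 itself had 184.1, 147.7 and 169.2 FPKM in SK4 libraries, against 8.31, 8.26 and 8.52 FPKM in control libraries, higher by 18.8-fold (16.6 to 21.3, 95% interval). The limma adjusted p was 8.83e-07 for a log2 fold change of 4.23. The groups did not overlap, and the exact two-sided permutation test gave 0.1, the smallest p that 3 against 3 samples allow. It was the only gene called among the 11139 tested, 0.00898%, at a Benjamini-Hochberg adjusted p below 0.05. Estimated depth was 36500000 to 38300000 fragments in SK4 libraries and 29700000 to 38500000 in control libraries. Thyroid follicular markers did not reach 1 FPKM (0 of 7, summed 0.46 to 0.53 in SK4 libraries and 0.41 to 0.56 FPKM in control libraries; TG and TSHR at most 0.01), while 4 of 4 epithelial markers did. Of the other cell types, 1 of 4 leukocyte markers did (CD14, 3.32 to 4.43 FPKM, with PTPRC at most 0.01), and none of 3 endothelial and 4 fibroblast markers. Control replicate 3 and SK4 replicate 2 stood a little below the other libraries of their group, by medians of -0.10 and -0.04 on the log2 scale over all tested genes. For replacement variants the medians were -0.14 and -0.12, and for replication-dependent genes -0.10 in both. Control replicate 1 had a median of -0.06 for replication-dependent genes, against 0.05 over all tested genes. Control replicate 2 stood highest for replication-dependent genes, at 0.15 against 0.05 over all tested genes. SK4 replicate 3 was at 0.09 for them, against -0.0031. The part of these shifts in the results was not tested. Results without both control replicate 3 and SK4 replicate 2 are given below.

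No histone gene was called (0 of 28, limma; all adjusted p 0.99997). Before adjustment, p was below 0.05 for 3 genes with higher values in SK4 libraries (H2BC4, H2BC12 and H1-2) and 1 with lower values (H2AC20), all replication-dependent. Over all tested genes 1.06% had such a p with a higher and 0.593% with a lower value. The SK4 values all lay above the control values for 4 histone genes (H2BC4, H2BC12, H1-2 and H2AC11), against 3.53% of all tested genes, and all below for 1 (H2AC20), against 1.81%. In either direction that is 5 of 28 histone genes, against 5.34% of all tested genes. Of the 20 replication-dependent genes, 16 had a positive log2 fold change, with a median of 0.13, and of the 8 replacement genes 3 did, with a median of -0.0011. Over all tested genes 57.9% were positive, with a median of 0.01. The count depended on single libraries. Without control replicate 1, 13 of the 20 replication-dependent genes were positive, with a median of 0.11. Without SK4 replicate 2, 19 were, with a median of 0.14.

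Among H2B genes, H2BC12 had 79.1, 77.5 and 73.5 FPKM in SK4 libraries, against 66.3, 69.9 and 69.3 FPKM in control libraries. Each SK4 library was above each control library, and the means stood 1.12-fold apart (76.7 ± 2.93 FPKM in SK4 libraries and 68.5 ± 1.91 FPKM in control libraries, SD, n = 3 each). The log2 fold change was 0.16 with a 95% interval of 0.07 to 0.26. Without adjustment the limma p was 0.00463, and the Benjamini-Hochberg adjusted p was 0.99997. GENCODE 29 on GRCh38 places H2BC12 at chr6:27146418-27146798, H1-2 at chr6:26055787-26056428, H2BC4 at chr6:26114873-26123926 and H2AC20 at chr1:149886975-149887364.

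H2BC4 had 2.14, 1.89 and 2.31 FPKM in SK4 libraries, against 1.50, 1.46 and 1.41 FPKM in control libraries. Its groups did not overlap, and its log2 fold change of 0.41 (0.21 to 0.62) was the largest among the 28 genes. The unadjusted limma p was 0.00177 and the adjusted p 0.99997. These values correspond to an estimated 58.0 to 73.8 fragments in SK4 libraries and 34.9 to 46.9 in control libraries. The coefficient of variation was 10.0% in SK4 libraries and 3.10% in control libraries. Counting error alone would give 12.3% in SK4 libraries and 15.4% in control libraries, so the spread among the control libraries was below counting error.

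H2BC5 had 7.55, 6.74 and 6.88 FPKM in SK4 libraries, against 7.0, 5.90 and 5.68 FPKM in control libraries. Its groups overlapped, with a log2 fold change of 0.18 (-0.03 to 0.38). H2BC21 had 3.38, 3.03 and 3.23 FPKM in SK4 libraries, against 3.68, 2.84 and 2.87 FPKM in control libraries. It overlapped too, with a log2 fold change of 0.04. H2BC8 had 2.45, 1.47 and 2.04 FPKM in SK4 libraries, against 1.67, 1.76 and 1.62 FPKM in control libraries. The SK4 libraries spread widely here, from below to above every control library. H2BC11 had 1.81, 1.06 and 1.37 FPKM in SK4 libraries, against 1.33, 1.71 and 1.51 FPKM in control libraries, a log2 fold change of -0.09. H2BC10 was at 0.85 to 1.08 FPKM in SK4 libraries and 0.69 to 1.29 FPKM in control libraries.

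Among linker histones of the cluster, H1-2 had 43.4, 45.1 and 41.8 FPKM in SK4 libraries, against 37.6, 40.7 and 40.9 FPKM in control libraries. The groups were apart, with means of 43.4 ± 1.68 FPKM in SK4 libraries and 39.8 ± 1.85 FPKM in control libraries (SD, n = 3 each). The log2 fold change was 0.13 (0.01 to 0.24), with an unadjusted limma p of 0.0334 and an adjusted p of 0.99997. H1-4, a second somatic linker histone, had 1.10 to 1.42 FPKM in SK4 libraries and 0.98 to 1.32 FPKM in control libraries.

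H2AC6, the highest of the H2A cluster genes, had 12.01, 10.85 and 12.68 FPKM in SK4 libraries, against 11.16, 11.38 and 10.24 FPKM in control libraries. Its groups overlapped, with a log2 fold change of 0.11 (-0.06 to 0.28). H2AC20, on chromosome 1, had 4.10, 3.02 and 3.90 FPKM in SK4 libraries, against 4.56, 5.31 and 4.29 FPKM in control libraries. Each SK4 value lay below each control value, with a log2 fold change of -0.33 (-0.61 to -0.04), an unadjusted limma p of 0.0293 and an adjusted p of 0.99997. It was the only gene of the 20 with lower SK4 values and an unadjusted p below 0.05. H2AC11 had 1.12, 1.09 and 1.04 FPKM in SK4 libraries, against 0.92, 1.03 and 0.90 FPKM in control libraries. Those groups were apart by 0.01 FPKM, and the unadjusted p was 0.176. H2AC12 was at 1.49 to 1.65 FPKM in SK4 libraries and 1.10 to 1.59 FPKM in control libraries, and H2AC8 at 1.13 to 1.44 FPKM in SK4 libraries and 0.93 to 1.37 FPKM in control libraries. Both overlapped.

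Of the H3 genes, H3C12 had 1.95, 1.11 and 1.49 FPKM in SK4 libraries, against 0.88, 1.18 and 1.06 FPKM in control libraries. The log2 fold change was 0.37 with an interval of -0.01 to 0.75, the second largest of the 28 genes, and the groups overlapped. H3C13 was at 1.29 to 2.14 FPKM in SK4 libraries and 0.77 to 2.32 FPKM in control libraries, and H3C3 at 1.07 to 1.93 FPKM in SK4 libraries and 0.74 to 2.29 FPKM in control libraries. For both genes the control libraries spread more than 2-fold. H3C10 was at 1.36 to 1.50 FPKM in SK4 libraries and 1.06 to 1.47 FPKM in control libraries, and H3C1 at 0.64 to 1.56 FPKM in SK4 libraries and 0.93 to 1.28 FPKM in control libraries. H4C3, the only tested H4 gene, had 5.61, 3.29 and 4.95 FPKM in SK4 libraries, against 4.61, 5.90 and 4.49 FPKM in control libraries. SK4 replicate 2 had the lowest value and control replicate 2 the highest, and the log2 fold change was -0.12 (-0.55 to 0.31).

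**Figure D2:**
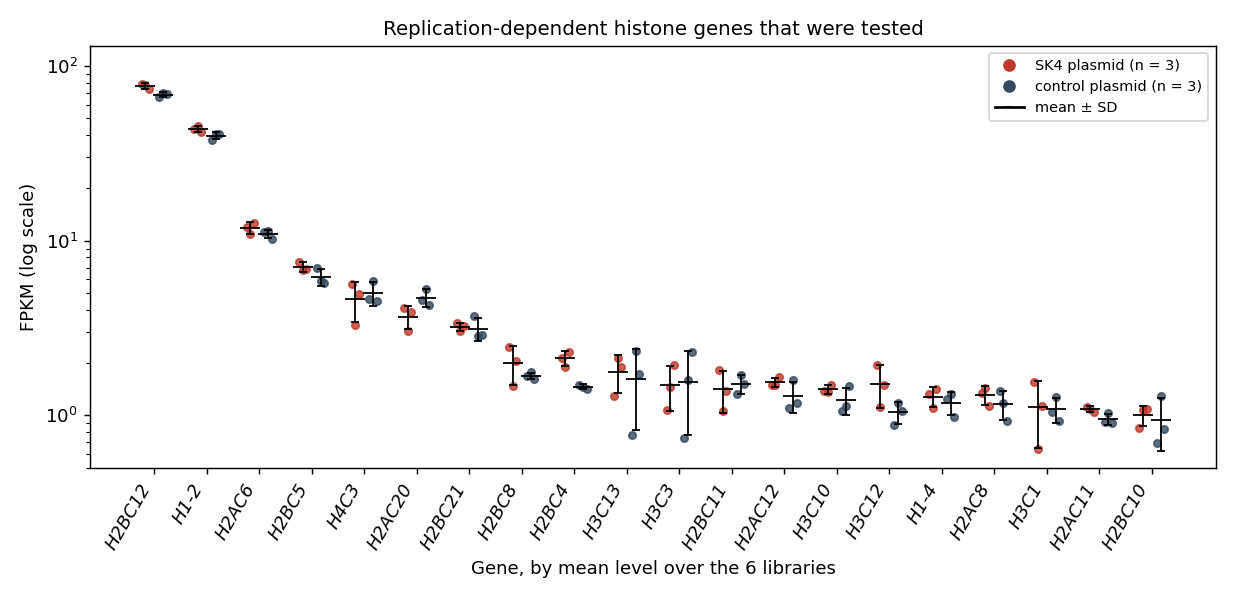
FPKM on a log axis for the 20 tested replication-dependent genes, with each library as a point and black bars for mean ± SD (n = 3). SK4 libraries are left of control libraries in each gene. H2BC12, H1-2, H2BC4 and H2AC11 have all SK4 points above the control points, H2AC20 all below, and the other 15 genes overlap.

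The means of the 8 tested replacement variants differed between groups by -4.30% (H3-3A) to 0.595% (H1-10). H2AZ1, the variant placed at promoters, had 213.3, 197.2 and 216.5 FPKM in SK4 libraries, against 224.3, 226.7 and 203.5 FPKM in control libraries, a log2 fold change of -0.06 (-0.19 to 0.07). The groups overlapped. H2AZ2, its paralogue, was at 11.62 to 13.54 FPKM in SK4 libraries and 12.3 to 14.06 FPKM in control libraries. H3-3B and H3-3A both encode H3.3, the H3 form deposited outside replication. H3-3B had 77.0, 68.8 and 73.8 FPKM in SK4 libraries, against 77.8, 75.8 and 66.2 FPKM in control libraries, and H3-3A had 27.1, 24.7 and 26.8 FPKM in SK4 libraries, against 29.3, 28.2 and 24.6 FPKM in control libraries. The lowest value lay in SK4 replicate 2 or control replicate 3 for each of these genes.

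H1-10 had 202.4, 201.6 and 192.8 FPKM in SK4 libraries, against 195.6, 198.3 and 199.4 FPKM in control libraries. H2AX had 63.9, 62.2 and 61.7 FPKM in SK4 libraries, against 62.4, 62.0 and 62.6 FPKM in control libraries. H2AJ was at 55.6 to 57.5 FPKM in SK4 libraries and 54.8 to 58.9 FPKM in control libraries. All 8 intervals of the replacement variants lay within a 1.5-fold change in either direction, as did 15 of the 20 replication-dependent ones. Over all tested genes 10779 of 11139 intervals did. The groups of every replacement variant overlapped.

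**Figure D3:**
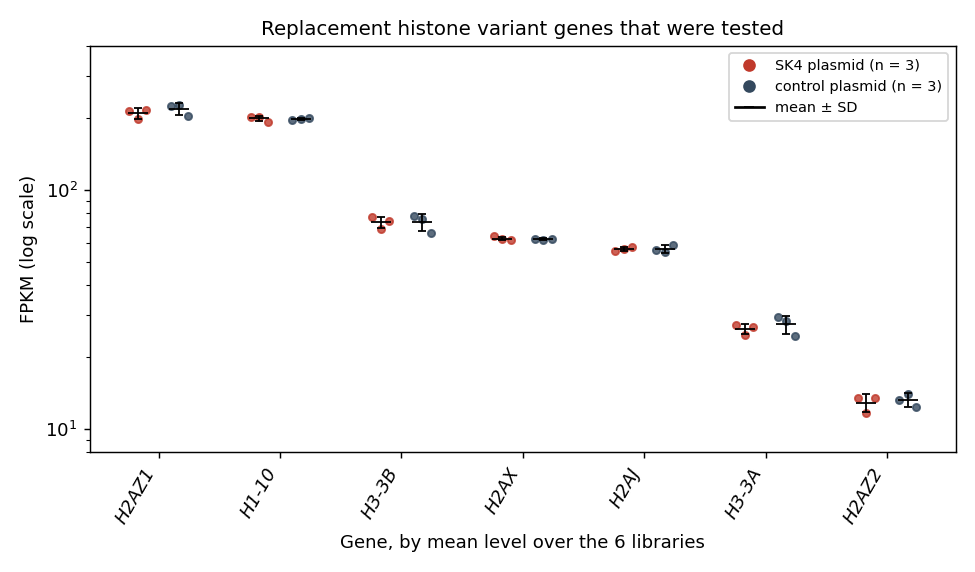
FPKM on a log axis for 7 of the 8 tested replacement variants, with each library as a point and black bars for mean ± SD (n = 3). SK4 libraries are left of control libraries, and the points of the groups overlap in every gene shown.

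**Figure D4:**
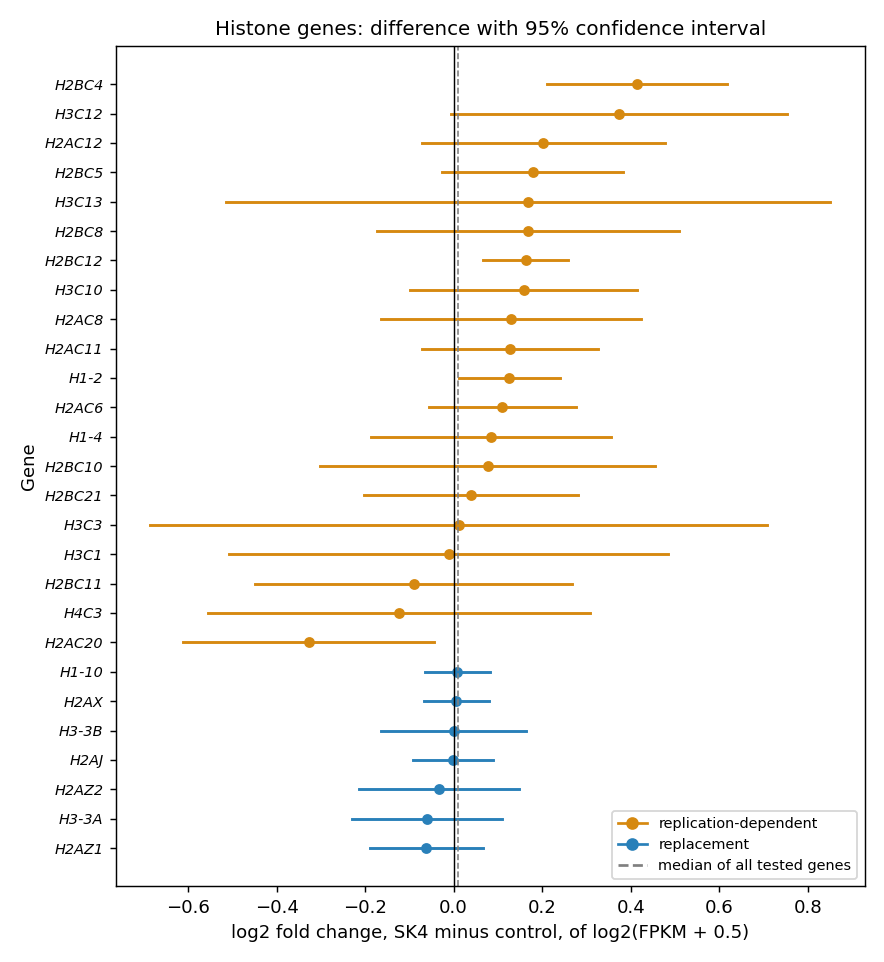
Log2 fold change, SK4 minus control, with 95% interval from limma for 27 of the 28 tested histone genes, orange for replication-dependent and blue for replacement genes, with a dashed line at the median of all tested genes (0.01). Intervals of H2BC12, H1-2 and H2BC4 lie above 0 and that of H2AC20 below 0, but no adjusted p was below 0.05.

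Summed over the 63 replication-dependent genes, FPKM was 193.8, 181.4 and 185.4 in SK4 libraries, against 166.4, 179.3 and 171.3 in control libraries. The sums did not overlap, and the means were 186.9 ± 6.33 in SK4 libraries and 172.3 ± 6.54 in control libraries (SD, n = 3 each), a difference of 8.43%. The exact two-sided permutation test cannot give less than 0.1 for 3 against 3 samples. H2BC12 and H1-2 supplied 62.1% to 67.6% of that sum in SK4 libraries and 61.7% to 64.3% in control libraries. Without them the sum was 58.7 to 71.2 FPKM in SK4 libraries and 61.1 to 68.7 FPKM in control libraries, which overlap. This split was made after the values were seen.

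By histone, the H2B genes summed to 95.4 to 101.9 FPKM in SK4 libraries, against 86.6 to 90.2 FPKM in control libraries, and the H1 genes to 45.2 to 47.3 FPKM in SK4 libraries, against 40.4 to 43.9 FPKM in control libraries. Both sets were apart. H2BC12 alone averaged 76.7 FPKM in SK4 libraries and 68.5 FPKM in control libraries, most of the H2B sum. H1-2 averaged 43.4 FPKM in SK4 libraries and 39.8 FPKM in control libraries, most of the H1 sum. Whether the other genes of either histone shifted as a set was not tested. The H2A sums (22.7 ± 1.99 FPKM in SK4 libraries, 22.4 ± 1.28 FPKM in control libraries), the H3 sums (9.68 ± 0.816 FPKM in SK4 libraries, 8.92 ± 2.19 FPKM in control libraries) and the H4 sums (10.3 ± 1.71 FPKM in SK4 libraries, 10.4 ± 1.24 FPKM in control libraries) overlapped (SD, n = 3 each). Replacement variants summed to 857.4, 806.2 and 844.4 FPKM in SK4 libraries, against 856.2, 866.9 and 810.7 FPKM in control libraries, and overlapped. Replication-dependent genes held 18.0% to 18.4% of all histone FPKM in SK4 libraries and 16.3% to 17.4% in control libraries, groups that did not overlap. This share includes H2BC12 and H1-2.

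**Figure D5:**
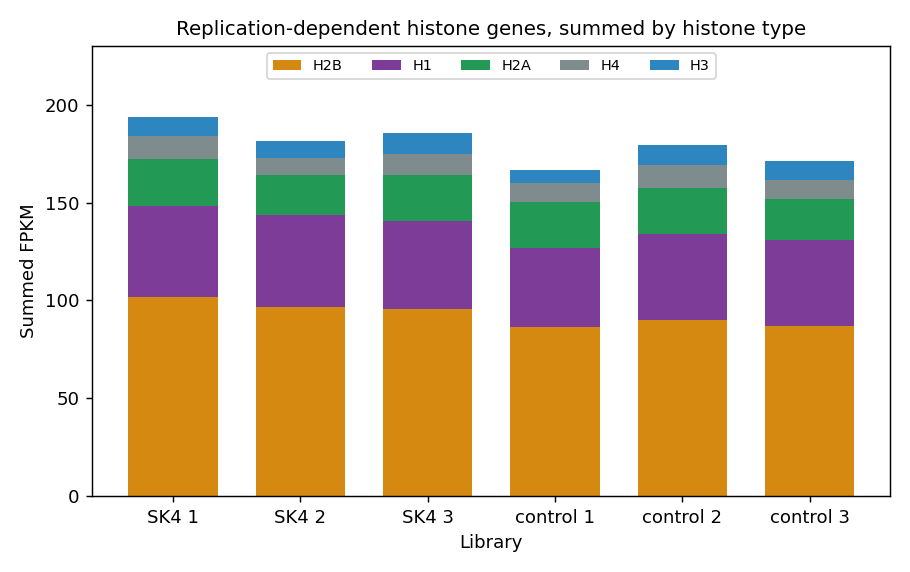
Summed FPKM of the 63 replication-dependent genes in each library, with SK4 libraries left of control libraries and each bar stacked by histone type. The bars reach 181.4 to 193.8 FPKM in SK4 libraries and 166.4 to 179.3 FPKM in control libraries, and H2B and H1 genes make up most of each bar.

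Histone promoters were read from RefSeq (GRCh38.p14) as 250 bases before to 50 bases after the start, for 63 of the 73 genes. Motifs were searched on both strands, and matches of different motifs did not overlap. TATAAA, the sequence of the TATA box, was in 38 of 55 replication-dependent promoters, 4 of 8 replacement promoters and 11.5% of all 35116 promoters. This counts matches anywhere in the window, not only those placed as a TATA box. The only match of H2AC8 lay on the opposite strand 206 bases before the start, and that of H2BC4 220 bases before it. CCAAT was in 47 of 55 and 7 of 8, against 34.6% of all. The octamer ATTTGCAT, a binding sequence of OCT1, was in 24 of 55 and 1 of 8, against 1.77% of all. Among replication-dependent promoters it was found in 10 of 14 H2A and 14 of 17 H2B promoters, and in none of those of H1, H3 and H4. The replacement promoter that holds it is that of H3-3B. AAACACA, a sequence known from H1 promoters, was in all 6 cluster H1 promoters, in 8 of 55 replication-dependent promoters in all and in 5.64% of all promoters. TTTCGCGC, a sequence bound by E2F factors, was in 12 of 55 and 0 of 8, against 0.515% of all. A divergent H2A and H2B pair shares much of a window, so these promoters are not all independent.

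The promoters of the genes with the highest replication-dependent levels, H2BC12 (chr6:27146809-27147108, minus strand) and H1-2 (chr6:26056421-26056720, minus strand), are shown 5′ to 3′, with the motif matches in capitals.
H2BC12: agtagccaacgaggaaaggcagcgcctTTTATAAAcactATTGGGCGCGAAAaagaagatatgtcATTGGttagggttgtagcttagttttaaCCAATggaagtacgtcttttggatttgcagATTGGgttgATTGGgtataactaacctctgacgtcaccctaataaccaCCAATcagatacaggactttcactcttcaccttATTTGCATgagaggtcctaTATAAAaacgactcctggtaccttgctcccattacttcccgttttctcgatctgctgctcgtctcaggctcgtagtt
H1-2: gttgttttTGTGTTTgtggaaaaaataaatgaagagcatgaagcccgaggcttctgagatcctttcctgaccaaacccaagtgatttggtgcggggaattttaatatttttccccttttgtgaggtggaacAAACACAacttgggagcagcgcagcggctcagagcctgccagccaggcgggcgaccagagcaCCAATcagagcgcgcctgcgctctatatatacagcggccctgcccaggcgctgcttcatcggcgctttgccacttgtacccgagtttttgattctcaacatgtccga
H2BC12 holds the octamer 46 bases before its start and a TATAAA match 27 bases before it. H1-2 holds CCAAT 57 bases before its start and AAACACA 119 bases before it, with a second AAACACA on the opposite strand.

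Divergent neighbours differed widely in level in some pairs. Of 10 divergent histone pairs less than 1000 bp apart, 9 joined an H2A and an H2B gene, and both genes were tested in 5. On the mean of the 6 libraries, H2BC12 stood 51.1-fold above H2AC12, whose start is 330 bp away, and H2AC6 stood 6.37-fold above H2BC4, 218 bp away. The pairs H2BC21 and H2AC20 (1.32-fold, 322 bp), H2BC8 and H2AC8 (1.50-fold, 282 bp) and H2BC11 and H2AC11 (1.44-fold, 291 bp) were close in FPKM. In the pair of H2BC21 and H2AC20, H2AC20 averaged 3.67 ± 0.575 FPKM in SK4 libraries and 4.72 ± 0.528 FPKM in control libraries, and H2BC21 averaged 3.21 ± 0.176 FPKM in SK4 libraries and 3.13 ± 0.477 FPKM in control libraries (SD, n = 3 each). Whether the fold changes of the pair differ was not tested.

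Genes that process histone mRNA were measured beside the histones. Of 23 listed, 19 were tested and 0 called, 0 had an unadjusted limma p below 0.05, and the median log2 fold change was -0.02. SLBP, which binds the stem-loop, had 45.1, 42.8 and 45.7 FPKM in SK4 libraries, against 47.0, 45.5 and 41.9 FPKM in control libraries, and the groups overlapped. CPSF3, the nuclease that cuts histone and other pre-mRNAs, averaged 14.5 ± 1.33 FPKM in SK4 libraries and 14.4 ± 1.40 FPKM in control libraries. CSTF2, a cleavage and polyadenylation factor, averaged 11.5 ± 0.341 FPKM in SK4 libraries and 12.1 ± 0.646 FPKM in control libraries. ERI1, an exonuclease that trims histone mRNA ends, averaged 1.78 ± 0.214 FPKM in SK4 libraries and 1.87 ± 0.202 FPKM in control libraries (SD, n = 3 each). NPAT, CASP8AP2, LSM11 and CCNE2 stayed below the test limit, with NPAT, the cyclin E substrate that activates histone transcription, at 0.443 FPKM in SK4 libraries and 0.393 FPKM in control libraries. CASP8AP2 averaged 0.287 FPKM in SK4 libraries and 0.26 FPKM in control libraries, and both encode parts of the histone locus body. LSM11, of the U7 particle that guides the cut, averaged 0.69 FPKM in SK4 libraries and 0.657 FPKM in control libraries, and CCNE2, a cyclin E, 0.933 FPKM in SK4 libraries and 0.977 FPKM in control libraries.

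Histone chaperones gave 0 called genes of 32 tested (35 listed), with 1 below an unadjusted limma p of 0.05 (VPS72, a subunit of the H2AZ-loading SRCAP complex, named after its values were seen, at 42.4 to 43.8 FPKM in SK4 libraries and 38.9 to 41.7 FPKM in control libraries) and a median log2 fold change of -0.0045. ASF1A averaged 8.17 ± 1.33 FPKM in SK4 libraries and 7.49 ± 0.315 FPKM in control libraries, and ASF1B 35.1 ± 0.187 FPKM in SK4 libraries and 34.8 ± 1.45 FPKM in control libraries (SD, n = 3 each). Both carry H3 and H4 dimers to the assembly factors. CHAF1A and CHAF1B are subunits of the assembly factor CAF-1. CHAF1A averaged 10.2 FPKM in both groups, and CHAF1B 3.65 FPKM in SK4 libraries and 4.0 FPKM in control libraries. Of the genes that deposit H3.3, HIRA averaged 12.1 FPKM in both groups and DAXX 30.6 FPKM in SK4 libraries and 29.6 FPKM in control libraries. NASP, which holds soluble H3 and H4, averaged 14.8 FPKM in SK4 libraries and 15.2 FPKM in control libraries. ANP32E, which removes H2AZ, averaged 16.8 FPKM in SK4 libraries and 16.2 FPKM in control libraries. HJURP, which deposits the centromeric histone CENPA, averaged 10.7 FPKM in both groups. SSRP1, a subunit of the chaperone FACT, averaged 26.1 FPKM in SK4 libraries and 27.8 FPKM in control libraries. The groups of each of these genes overlapped except those of VPS72.

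Of histones outside the symbol rule, MACROH2A1 averaged 13.9 FPKM in SK4 libraries and 14.1 FPKM in control libraries, and MACROH2A2 0.0233 FPKM in SK4 libraries and 0.0167 FPKM in control libraries. CENPA averaged 8.20 FPKM in SK4 libraries and 8.39 FPKM in control libraries. H2AW, an H2A gene named after its values were seen, averaged 9.52 ± 0.407 FPKM in SK4 libraries and 8.87 ± 0.932 FPKM in control libraries (SD, n = 3 each). The log2 fold changes of these 3 tested genes were -0.02 for MACROH2A1, -0.03 for CENPA and 0.10 for H2AW, and the groups of each overlapped. Of the 3 tested (15 listed), 0 were called and 0 had an unadjusted limma p below 0.05. Of 42 listed genes of S phase, when replication-dependent histones are made, 41 were tested and 0 called, with 0 unadjusted limma p below 0.05, 13 positive log2 fold changes and a median of -0.02. PCNA averaged 132.5 ± 6.23 FPKM in SK4 libraries and 133.4 ± 14.8 FPKM in control libraries, and TK1 67.5 ± 2.86 FPKM in SK4 libraries and 70.8 ± 1.49 FPKM in control libraries. RRM2 averaged 24.3 ± 0.996 FPKM in SK4 libraries and 25.8 ± 2.20 FPKM in control libraries, and MCM2 24.8 ± 0.547 FPKM in SK4 libraries and 25.1 ± 0.552 FPKM in control libraries (SD, n = 3 each). The median of the replication-dependent histones was 0.13 in the same libraries, but whether the lists differ was not tested.

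Without control replicate 3 and SK4 replicate 2, 0 histone genes were called and 4 genes in all. Then 7 replication-dependent genes had an unadjusted limma p below 0.05 with higher SK4 values and 1 with lower, and 2 replacement variants with lower (H2AZ1 and H3-3A), while 5.07% of all tested genes had such a p.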

How the data were processed

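RNA was measured by poly(A)-selected, strand-marked sequencing in 3 SK4 and 3 control libraries. The authors deposited FPKM values per gene. Per the submitters' processing notes HISAT2 and GRCh38 were used; the counting tool, its strand setting and the annotation were not stated in the sources used here. Libraries were grouped by their labels. Members and gene lists were chosen with earlier results of these data known. Values were taken as log2(FPKM + 0.5), so fold changes of low genes are understated. The 11139 genes that reached 1 FPKM in 3 or more libraries were fitted with limma 3.58.1 in R 4.3.3 (trended, robust prior variance, group as the only term), and p-values were adjusted by Benjamini-Hochberg over all of them. The fit was tested on simulated data of 11139 genes. It recovered 22% of the genes changed by a log2 fold of 0.26, 68% at 0.58, 84% at 1 and 100% at 2. There were 6 false calls. Most changes of 0.26 were thus missed. In the simulation 50 genes were changed at each size, and noise was drawn gene by gene without shifts shared by a library. Where fewer genes change, the adjusted p is harder to pass. These rates may therefore be too high for the real libraries. Fragments per gene were estimated from multiples of the FPKM that 1 fragment gives, and cover counting error only. Named were KCNN4, every tested member, the 3 highest untested ones and a fixed set of list genes, except that values of 1 tested member are not reported here, though it stays in the counts and sums. Replicate numbers were not used to pair the libraries in the main fit. Alternatives are given in the closing section.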

Additional observations from a re-analysis of the deposited data

How the results depend on the processing

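The 17 alternatives covered pseudocounts, filters, scalings, a GC correction, library weights, another prior variance, the replicate block and libraries left out, and no histone gene was called in any of them. The number of all genes called was 1 throughout, except 4 without both control replicate 3 and SK4 replicate 2. Leaving out 1 library at a time gave a median histone log2 fold change of 0.03 to 0.10, a KCNN4 value of 4.16 to 4.32, a ratio of replication-dependent sums of 1.06 to 1.11 and of replacement sums of 0.97 to 1.01. With the replicate block 0 histone genes and 1 gene in all were called, and H2BC12, H2BC4 and H2BC5 had an unadjusted limma p below 0.05. After centring within each group, the same-numbered libraries correlated at 0.31, -0.41 and -0.15. With 3 libraries a group, such values cannot settle whether the numbers pair the libraries. H1-2 was above an unadjusted 0.05 with quantile normalization, median centring, the constant prior variance, the replicate block, and without control replicate 1, SK4 replicate 1 or SK4 replicate 2. H2AC20 was above it with the replicate block and without control replicate 1, control replicate 2 or SK4 replicate 2. With library weights 6 replication-dependent genes were below it with higher values and 1 with lower, where 8.12% of all genes were. The replacement variant H3-3A was also below it there, with lower values. Without control replicate 3 alone, 4 replication-dependent genes were below it with higher values and 1 with lower. H2AZ1 and H3-3A were then below it with lower values, where 3.76% of all genes were. Of the 27 genes reported 13 kept their direction in every alternative, and 37 of 443 gene values turned. These were H3C3 (-0.0008) with a pseudocount of 1; H2AX (-0.0021) and H3C3 (-0.020) with quantile normalization; H2AX (-0.0048) and H1-10 (-0.0027) with median centring; H2AC8 (-0.045), H2AJ (0.033), H2BC21 (-0.0092), H2AX (-0.0012), H1-10 (-0.010) and H3C1 (0.014) with library weights; and H2AC8 (-0.025), H2AJ (0.029), H4C3 (0.013), H2BC11 (0.048) and H3C1 (0.15) without both libraries. With 1 library or both of these left out the ranges were -0.0045 to 0.031 for H1-10, -0.0038 to 0.16 for H1-4, -0.025 to 0.029 for H2AJ, -0.0087 to 0.016 for H2AX, -0.082 to 0.037 for H2AZ2, -0.050 to 0.24 for H2BC10, -0.24 to 0.048 for H2BC11, -0.017 to 0.15 for H2BC21, -0.071 to 0.045 for H3-3B, -0.21 to 0.22 for H3C1, -0.16 to 0.42 for H3C13, -0.31 to 0.28 for H3C3 and -0.27 to 0.079 for H4C3. The causes were not tested. Depth limits the genes near 1 FPKM: H2BC4 rests on an estimated 34.9 to 73.8 fragments a library.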

Other observations

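Rows that carry histone names but code for no protein were measured too and entered no comparison. H1-10-AS1, an RNA antisense to H1-10, had 8.11, 8.94 and 8.41 FPKM in SK4 libraries, against 8.88, 8.01 and 8.67 FPKM in control libraries. Reads of H1-10 and of this antisense RNA can be told apart only if the counting used strand, which was not stated in the sources used here. H2AC5P, an H2A pseudogene named after its values were seen, had 0.22, 0.37 and 0.21 FPKM in SK4 libraries. It had 0.00, 0.07 and 0.09 FPKM in control libraries and was not tested. Its groups did not overlap, as for 7.21% of all untested genes with at least 0.1 FPKM on average. H2BC19P and H2BC20P lay between 0.38 and 0.90 FPKM in all 6 libraries.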
